A study of Mus musculus with 9 samples.

Results

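The genes described here are 9 members of the pathway that runs from Janus kinases (JAK) to the STAT transcription factors, chosen by name out of the 54532 genes in the table: the suppressors of cytokine signaling Socs1, Socs3 and Cish, the kinases Jak1 and Jak2, and the transcription factors Stat2, Stat3, Stat5a and Stat6. Their messenger RNA was read by sequencing in RAW264.7, a macrophage line of mouse origin whose labels give ascites as tissue and a wild-type genotype. There were 3 groups of 3 libraries: control cells without treatment, cells exposed to lipopolysaccharide (LPS, a bacterial outer membrane component, 1 μg/ml), and cells exposed to the same LPS dose plus G-CDs (400 μg/ml). G-CDs are carbon dots made from the licorice plant Glycyrrhiza that carry out a reaction like that of superoxide dismutase. The series design gives 6 h for the LPS-containing media, and no time was given for the control cells. The third group is named for G-CDs in its titles, while its treatment label lists LPS alone, so its treatment rests on the titles and the design text. There was no group with G-CDs and without LPS, and all cells were of a single line.

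Each library held between 14752400 and 17312255 reads on genes. Values were deposited as FPKM, reads scaled to gene length and library size, and 11585 genes with at least 1 FPKM in at least 3 libraries, among them all 9 members, were tested. Socs1 and Cish passed that filter through the libraries of the LPS-containing groups alone, so a difference from control was built into their passing it. Of 10 macrophage markers, 9 were at 1 FPKM or more in every library and Mertk was listed at 0 in each. Markers of T cells, B cells, fibroblasts and epithelial cells summed to at most 0.553 FPKM in a library, and those of endothelial cells to at most 1.25. Neither labels nor methods say that replicates were separate cultures, so p-values measure the spread between these libraries, which may be technical. In such bulk samples a smaller share of responding cells and less RNA per cell cannot be told apart.

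In this pathway a cytokine brings its receptor chains together, JAK kinases bound to those chains phosphorylate them, and STAT proteins dock there, are phosphorylated and move to the nucleus as dimers. The SOCS genes are among the targets that STAT proteins switch on, and their products bind receptors or kinases and damp the signal, which makes a negative feedback loop. Macrophages given LPS secrete type I interferon, interleukins and colony-stimulating factors that engage these receptors on the same cells.

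Promoter sequence is shown for the members whose start region held a motif bound by STAT proteins or by interferon regulatory complexes. RefSeq windows (GRCm38.p6) were found for 9 of 9 members, 10 windows in all since Stat5a has more than 1 start, and the 250 bases before each start were searched on both strands. The first motif was the gamma-activated site bound by STAT dimers, TTC and GAA with any 3 bases between. The second was the core of the interferon-stimulated response element (ISRE) bound by the interferon complex that holds STAT2 and IRF9, GAAA and GAAA with any 2 bases between. The last was a loose pattern for sites of the NF-κB family, GGGA and CC with any 4 bases between, so a match need not be such a site. Capitals mark the matches. The Socs3 stretch is chr11:117969452-117969616 on the minus strand, within an intron of an annotated Socs3 transcript, and ends where an exon of another begins; its gamma-activated site starts 154 bases before the RefSeq start and its NF-κB match 97 bases before it. The Socs1 window is chr16:10785537-10785786 on the minus strand and the Stat2 window chr10:128270248-128270497 on the plus strand, both outside annotated genes. A pair of gamma-activated sites lies just past the Cish start, at chr9:107296659-107296678 on the plus strand within an exon of an annotated Cish transcript.
Socs3: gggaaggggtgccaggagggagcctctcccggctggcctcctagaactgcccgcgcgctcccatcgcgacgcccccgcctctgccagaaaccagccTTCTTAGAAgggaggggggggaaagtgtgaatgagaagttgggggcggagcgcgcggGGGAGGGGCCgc
Socs1: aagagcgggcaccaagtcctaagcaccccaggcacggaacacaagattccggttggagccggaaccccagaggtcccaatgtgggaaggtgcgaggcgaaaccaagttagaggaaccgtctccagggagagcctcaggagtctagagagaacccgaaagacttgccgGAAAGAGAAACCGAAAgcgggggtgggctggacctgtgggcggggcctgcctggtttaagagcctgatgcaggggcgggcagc
Stat2: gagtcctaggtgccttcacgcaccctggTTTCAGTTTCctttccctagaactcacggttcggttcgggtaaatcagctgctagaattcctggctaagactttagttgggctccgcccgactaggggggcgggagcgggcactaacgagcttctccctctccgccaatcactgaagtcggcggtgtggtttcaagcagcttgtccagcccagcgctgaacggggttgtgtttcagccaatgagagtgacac
Cish: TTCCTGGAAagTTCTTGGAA

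The capitals in Socs1 are a pair of ISRE matches that share 4 bases, and those in Stat2 are 1 ISRE match read on the opposite strand. In the 250 bases before the start, the gamma-activated site was found in 1 of 9 members (Socs3) and in 7.02% of all 32851 RefSeq windows. The ISRE core was found in 2 of 9 members (Socs1 and Stat2) and in 2.98% of all windows. The NF-κB pattern was found in 3 of 9 members (Socs3, Stat5a and Stat6) and in 17.6% of all windows. Cish, Jak1, Jak2 and Stat3 held none of the 3 in that stretch. The Cish pair, 2 sites that stand 2 bases apart in a run of 20 bases, lies past the start and is not in these counts. With the 50 bases past each start also searched, 8.30% of all windows held a gamma-activated site. The share of windows with a pair was not counted. A match describes the letters and does not show that a protein was bound.

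The comparison of LPS with control cells asked which pathway genes the bacterial signal moved. With limma on log2(FPKM + 1) and Benjamini-Hochberg adjustment over all genes, 7 of 9 members passed an adjusted p of 0.05, where 31.3% of all genes did, and all 7 were higher in LPS cells, where 15.8% of all genes were called higher. Leaving aside Socs1 and Cish, which the filter favored, 5 of 7 were called. The members and gene lists were chosen with earlier results of these data known. Their counts beside the shares of all genes, here and below, are therefore a description and no test. The libraries of the groups did not overlap for 9 of 9 members, LPS above control, against 27.4% of all genes. The members' median log2 fold change was 1.34, beside 0.02 over all genes. Since adding 1 to the FPKM shrinks the fold of weakly expressed genes, ratios of mean FPKM are given beside the log2 values.

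**Figure D1:**
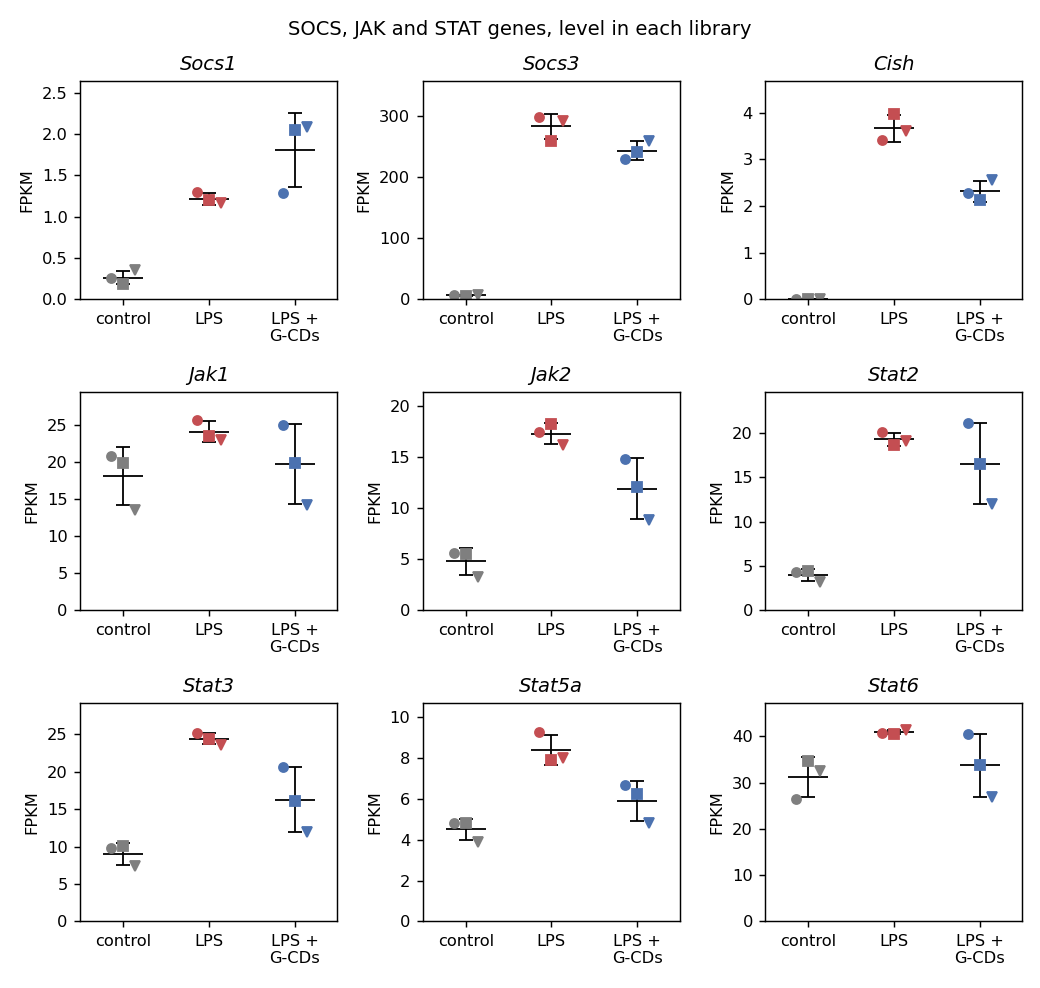
FPKM of each member (vertical axis, linear and starting at 0, with a scale of its own in each panel) in the 3 control, 3 LPS and 3 LPS + G-CDs libraries. Circles, squares and triangles are replicates 1, 2 and 3, the long bar is the mean and the whiskers are 1 SD; in every panel the LPS libraries lie above the control libraries, and for Cish, Jak2 and Stat3 the LPS + G-CDs libraries lie between the other groups.

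Among the suppressors, Socs3 (ENSMUSG00000053113, chromosome 11, 117966079 to 117970047, minus strand, GRCm38 as for all members) showed the largest ratio of the members with more than 1 read in control cells. The SOCS3 protein binds receptors of the interleukin-6 type and the JAK attached to them. Its levels were 7.27, 4.90 and 6.06 FPKM in the control libraries, 297, 259 and 292 FPKM in the LPS libraries, and 229, 241 and 259 FPKM in the LPS + G-CDs libraries. The control libraries were far below the others, and the ranges of the LPS and LPS + G-CDs libraries met at their edges. The mean went from 6.07 ± 1.19 to 282 ± 20.9 FPKM (SD, n = 3), a ratio of 46.5. The log2 fold change was 5.34 with a standard error of 0.15 (limma adjusted p = 2.81e-08).

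Cish (ENSMUSG00000032578, chromosome 9, 107296026 to 107302784, plus strand) encodes CIS, which occupies STAT5 docking sites on activated receptors and is itself a STAT5 target. It had 0, 0 and 1 reads in the control libraries, 304, 353 and 336 reads in the LPS libraries, and 211, 226 and 231 reads in the LPS + G-CDs libraries. As levels these were 0, 0 and 0.00875 FPKM, then 3.43, 3.98 and 3.60 FPKM, then 2.27, 2.12 and 2.56 FPKM. Cish was at or next to 0 in control cells, highest in LPS cells and lower, without overlap, in each of the LPS + G-CDs libraries. Pooled over libraries and scaled to library size, the reads in LPS cells (993) were 1262 times those in control cells (1), with a 95% counting interval of 226 to 49899 that covers counting error only. The log2 fold change of 2.22 (limma adjusted p = 1.65e-06) depends on the pseudocount and was 5.19 with a pseudocount of 0.1.

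Socs1 (ENSMUSG00000038037, chromosome 16, 10782240 to 10785536, minus strand), which inhibits JAK catalysis directly and limits interferon signaling, was the lowest member in both LPS-containing groups. It was read at 0.257, 0.182 and 0.348 FPKM in control cells, 1.29, 1.20 and 1.16 FPKM in LPS cells, and 1.28, 2.05 and 2.08 FPKM in LPS + G-CDs cells. These levels rest on 9 to 18 reads per control library, 48 to 52 per LPS library and 54 to 99 per LPS + G-CDs library. Socs1 was higher in every library with LPS than in any control library, and in the LPS + G-CDs group replicates 2 and 3 stood apart from replicate 1, which lay within the LPS range. Between LPS and control the ratio of means was 4.64 and the log2 fold change 0.81 with a standard error of 0.15 (limma adjusted p = 0.00353).

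Of the 2 kinases, Jak2 was called between LPS and control and Jak1 was not. Jak2 (ENSMUSG00000024789, chromosome 19, 29251828 to 29313080, plus strand), which serves the receptors of interferon gamma and of granulocyte-macrophage colony-stimulating factor, was at 5.59, 5.48 and 3.26 FPKM in control cells, 17.5, 18.2 and 16.2 FPKM in LPS cells, and 14.8, 12.1 and 8.80 FPKM in LPS + G-CDs cells. The 3 groups did not overlap, with control lowest and LPS highest. Its LPS to control ratio was 3.62 and its log2 fold change 1.69 with a standard error of 0.21 (limma adjusted p = 0.000399). Jak1 (ENSMUSG00000028530, chromosome 4, 101152367 to 101265282, minus strand), which serves interferon and interleukin-6 type receptors, was at 20.9, 19.9 and 13.6 FPKM in control cells, 25.7, 23.5 and 23.1 FPKM in LPS cells, and 25.1, 19.9 and 14.3 FPKM in LPS + G-CDs cells. Its LPS libraries lay above the control libraries, while the LPS + G-CDs libraries spanned nearly the whole range of both. The Jak1 difference between LPS and control was 0.41 on the log2 scale with a 95% interval of -0.08 to 0.91 (limma adjusted p = 0.186), and with the trend on gene length removed it was 0.42 with an adjusted p of 0.0457. The difference between the responses of Jak1 and Jak2 was not tested.

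Of the transcription factors, Stat2 (ENSMUSG00000040033, chromosome 10, 128270559 to 128292849, plus strand) had the largest ratio between LPS and control. STAT2 acts with IRF9 downstream of the type I interferon receptor. It stood at 4.31, 4.41 and 3.20 FPKM in control cells, 20.1, 18.7 and 19.1 FPKM in LPS cells, and 21.1, 16.5 and 12.0 FPKM in LPS + G-CDs cells. All control libraries were low, and the LPS + G-CDs libraries reached both above and below the narrow LPS range. Between LPS and control the ratio was 4.86 and the log2 fold change 2.04 with a standard error of 0.19 (limma adjusted p = 6.6e-05).

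Stat3 (ENSMUSG00000004040, chromosome 11, 100885098 to 100939540, minus strand), the effector of the interleukin-6 and interleukin-10 receptors, was at 9.77, 10.04 and 7.37 FPKM in control cells, 25.1, 24.4 and 23.6 FPKM in LPS cells, and 20.7, 16.1 and 12.0 FPKM in LPS + G-CDs cells. The groups did not overlap, and the LPS + G-CDs libraries lay between the others. The ratio of LPS to control was 2.69 and the log2 fold change 1.34 with a standard error of 0.19 (limma adjusted p = 0.000759). Stat3 and Stat5a overlap by 72 bases on opposite strands, and since the counting was not stated to use strand, reads from that stretch cannot be told apart.

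Stat5a (ENSMUSG00000004043, chromosome 11, 100859351 to 100885169, plus strand), a mediator of granulocyte-macrophage colony-stimulating factor, was at 4.81, 4.79 and 3.89 FPKM in control cells, 9.26, 7.92 and 8.004 FPKM in LPS cells, and 6.65, 6.23 and 4.81 FPKM in LPS + G-CDs cells. The LPS libraries were the highest, and replicate 3 of the LPS + G-CDs group lay at the top of the control range. The ratio of LPS to control was 1.87 and the log2 fold change 0.78 with a standard error of 0.14 (limma adjusted p = 0.00303), which as TPM was 0.60 with an adjusted p of 0.0861. Of the 50-base words in its longest transcript, 10.8% are shared with its neighbor Stat5b, so reads may be split between the pair. Stat5b itself was at 6.26 ± 0.636 FPKM in control and 5.90 ± 0.327 FPKM in LPS cells (SD, n = 3, limma adjusted p = 0.747).

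Stat6 (ENSMUSG00000002147, chromosome 10, 127642986 to 127660957, plus strand), the effector of the interleukin-4 and interleukin-13 receptors, was the highest member in control cells. Its levels were 26.4, 34.7 and 32.5 FPKM in control cells, 40.8, 40.4 and 41.3 FPKM in LPS cells, and 40.5, 33.7 and 26.9 FPKM in LPS + G-CDs cells. The LPS libraries lay close together above the control range, and the LPS + G-CDs libraries overlapped the control range, with replicate 1 reaching into the LPS range. The difference between LPS and control was 0.39 on the log2 scale with a 95% interval of 0.01 to 0.76 (limma adjusted p = 0.109), and with the trend on gene length removed 0.50 with an adjusted p of 0.0342. Stat6 shares 40 bases with Nab2 on the opposite strand.

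The comparison of LPS + G-CDs with LPS cells asked what the carbon dots changed during the LPS response. No member passed limma at an adjusted p of 0.05 (0 of 9, where 0.492% of all genes did), and voom on the recovered reads also called 0 of 9. At an unadjusted p under 0.05 there were 4 of 9 members, where 15.2% of all genes were. At the thresholds of the study, an unadjusted p under 0.01 with over 1.5-fold, there were 0 of 9 members and 2.49% of all genes when the fold was taken on log2(FPKM + 1). That scale shrinks the fold of Cish, which at an unadjusted limma p of 0.00229 and a ratio of mean FPKM of 0.632 passed both thresholds with the fold taken on FPKM, and also passed as TPM and with voom. The ranges of both groups did not overlap for 4 of 9 members, Cish, Jak2, Stat3 and Stat5a, each lower with G-CDs, where 15.0% of all genes were separated in that direction. By point estimate 8 of 9 members were lower with G-CDs and Socs1 was higher, while 48.0% of all genes were lower. Of genes of 5000 bases or more, a length that 6 of the 9 members reach, 72.3% were lower.

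**Figure D2:**
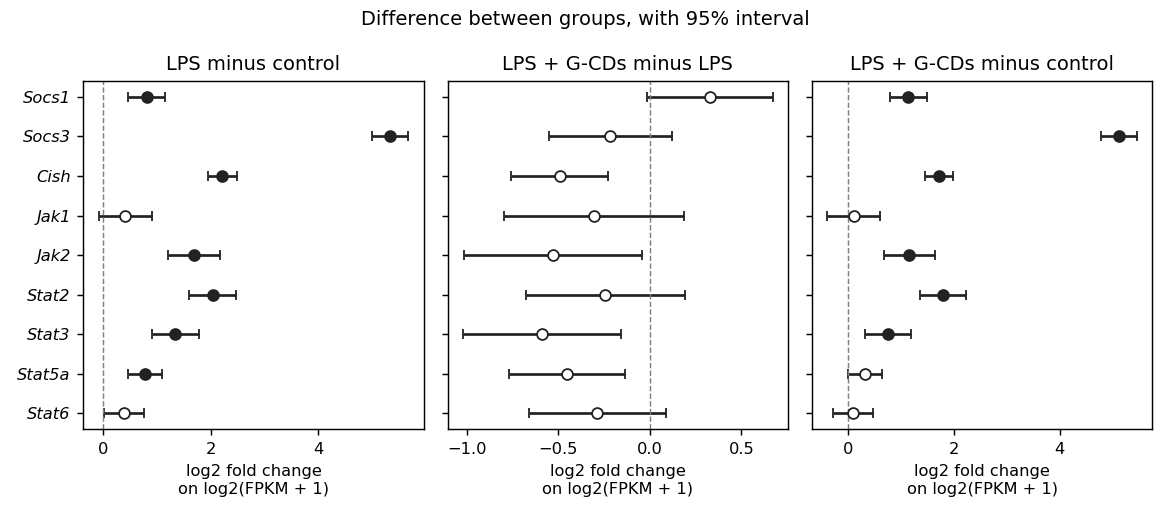
Log2 fold change on log2(FPKM + 1) of each member (horizontal axis, with a scale of its own in each panel) with its 95% interval from limma, for the 3 comparisons. Filled points passed a Benjamini-Hochberg adjusted p of 0.05: 7 of 9 for LPS minus control, 0 of 9 for LPS + G-CDs minus LPS and 6 of 9 for LPS + G-CDs minus control.

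For Cish the LPS + G-CDs to LPS ratio of means was 0.632, and the log2 difference was -0.49 with a 95% interval of -0.76 to -0.23 (limma adjusted p = 0.15). Stat3 had a ratio of 0.666 and a difference of -0.59 with an interval of -1.02 to -0.16 (adjusted p = 0.269). Those of Jak2 were 0.687 and -0.53, with an interval of -1.02 to -0.04 (adjusted p = 0.319). These members and Stat5a are the ones whose libraries did not overlap. Stat5a had a ratio of 0.702 and a difference of -0.45 with an interval of -0.77 to -0.14 (adjusted p = 0.249). With the trend on gene length removed, the differences of the same 4 genes were -0.38 for Cish, -0.35 for Stat3, -0.50 for Jak2 and -0.31 for Stat5a, and none was called.

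For the remaining members the intervals reached both sides of 0. Socs3, with a ratio of 0.86, had a log2 difference of -0.22 and a 95% interval of -0.55 to 0.12 (limma adjusted p = 0.409). Socs1, with a ratio of 1.48, had a difference of 0.33 and an interval of -0.02 to 0.67 (adjusted p = 0.326). These suppressors thus lay on opposite sides of 0 with overlapping libraries. Jak1 had a difference of -0.31 and an interval of -0.80 to 0.19 (adjusted p = 0.419). That of Stat2 was -0.24 with an interval of -0.68 to 0.19 (adjusted p = 0.457). Stat6 differed by -0.29 with an interval of -0.66 to 0.09 (adjusted p = 0.359). In each of Jak1, Stat2 and Stat6, replicate 1 of the LPS + G-CDs group was the highest of its group and replicate 3 the lowest, as for Jak2, Stat3 and Stat5a.

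The medians of longer genes showed the same pattern. Among the 4111 tested genes of 5000 bases or more, the median deviation from the mean of the LPS + G-CDs group was 0.19 on the log2 scale in replicate 1 and -0.19 in replicate 3, while among the 7474 shorter genes it was -0.14 and 0.15. The same medians for longer genes stayed between -0.02 and 0.01 in the LPS libraries, and in the control libraries were 0.08, 0.09 and -0.15. The members followed it in part. In replicate 1 of the LPS + G-CDs group, Jak1, Jak2, Stat2 and Stat3 deviated by 0.36, 0.32, 0.36 and 0.36, and in replicate 3 by -0.41, -0.37, -0.40 and -0.38. Cish, 6419 bases long, deviated by -0.02 and 0.10, and Stat6, at 4402 bases below the limit, by 0.28 and -0.30. Between LPS + G-CDs and LPS the median log2 fold change was -0.17 for longer and 0.13 for shorter genes. The part of this trend in the members' differences was measured only by the fit without it, given above.

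**Figure D3:**
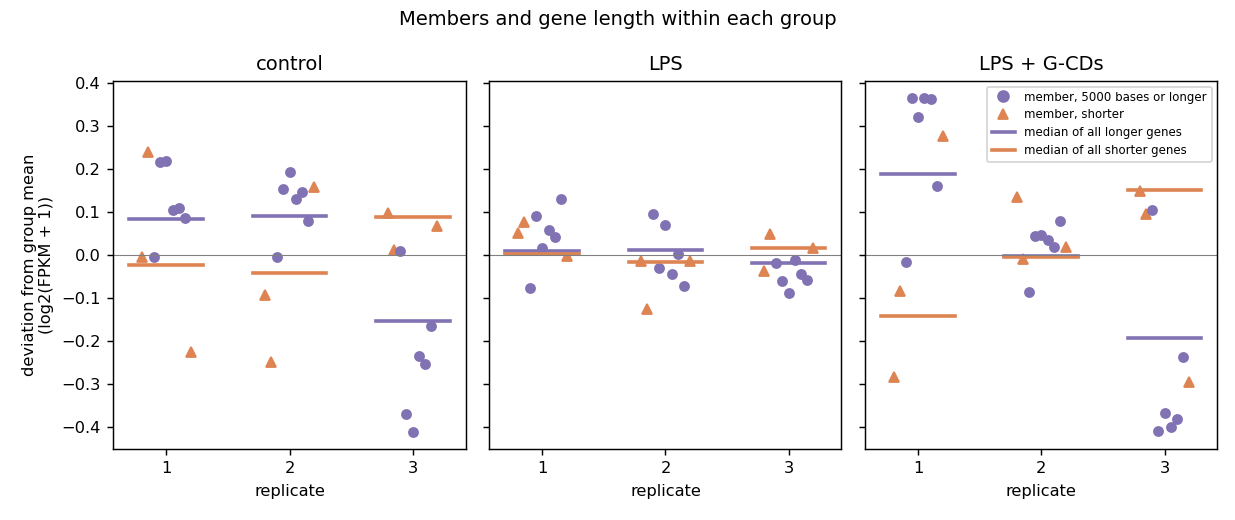
Deviation of each member from the mean of its group on log2(FPKM + 1) (vertical axis) in replicates 1, 2 and 3 of each group (horizontal axis). Circles are members of 5000 bases or more, triangles shorter members, and the bars the medians of all longer and all shorter genes; the bars part by most in replicates 1 and 3 of the LPS + G-CDs group and by least in its replicate 2.

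Against control cells, which this comparison shares with the LPS comparison, the LPS + G-CDs cells had 6 of 9 members called, all higher, where 25.3% of all genes were called and 12.8% called higher. Leaving aside Socs1 and Cish, which passed the filter through the LPS-containing groups, 4 of 7 were called. The same 6 members had libraries that did not overlap, where 17.7% of all genes were separated in that direction. Socs3 was 40.0 times its control mean (log2 fold change 5.12, limma adjusted p = 4.59e-08). Cish had 668 reads against 1, a ratio of 793 with a counting interval of 142 to 31385. Socs1 was at 1.80 ± 0.451 against 0.262 ± 0.0831 FPKM (SD, n = 3), a ratio of 6.89 (adjusted p = 0.000646).

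Jak2 and Stat2 likewise rose against control, by ratios of 2.49 (limma adjusted p = 0.00406) and 4.16 (adjusted p = 0.00017), although as TPM the call of Jak2 was lost (log2 difference 0.85, adjusted p = 0.0749). Stat3 rose by a ratio of 1.79 and a log2 fold change of 0.76 (adjusted p = 0.0189), a call that was lost without replicate 3 of the control group (0.63, adjusted p = 0.0532), without replicate 2 of the LPS + G-CDs group (0.75, adjusted p = 0.0654), with the 6 libraries alone (adjusted p = 0.0685) and as TPM (0.37, adjusted p = 0.361). Stat5a had a log2 difference of 0.32 (adjusted p = 0.134), which passed at 0.47 with the length trend removed (adjusted p = 0.00459) and at 0.44 without replicate 3 of the LPS + G-CDs group (adjusted p = 0.0404). Jak1 and Stat6 had differences of 0.11 and 0.10 (adjusted p = 0.762 and 0.707), and as TPM both were negative. On that scale the median of all genes moved to -0.38 in this comparison.

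The members were put in order of FPKM, and this order depends on the gene length used. That length exceeds the longest annotated transcript for some members (Stat5a, 7133 against 3958 bases) and not for others (Jak2, 5030 bases for both). By FPKM, Stat6 led the control cells at 31.2 ± 4.3, followed by Jak1 at 18.1 ± 3.96 and Stat3 at 9.06 ± 1.47 (SD, n = 3). Socs3, Jak2, Stat5a and Stat2 came next, between 6.07 and 3.97 FPKM, with neighbors in the order that overlapped in their libraries. Socs1 and Cish closed the order. In LPS cells Socs3 led, Stat6 followed at 40.8 ± 0.456 FPKM, Stat3 and Jak1 overlapped at 24.4 ± 0.744 and 24.1 ± 1.41 FPKM, and Stat2, Jak2, Stat5a, Cish and Socs1 followed without overlap between neighbors. In LPS + G-CDs cells Socs3 and Stat6 again led, Jak1, Stat2, Stat3 and Jak2 followed, each overlapping its neighbor, and Stat5a stood below them. Cish and Socs1 were the lowest members in all groups, with Socs1 above Cish in control cells and below it in both LPS-containing groups.

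Among 10 other genes of the SOCS, JAK and STAT families and their partner Irf9, 8 were tested, and Socs2 and Stat4 stayed under the filter. Between LPS and control 1 of 8 was called, higher, with a median log2 fold change of 0.29, where 31.3% of all genes were called and 15.8% called higher. This was Irf9, the partner of STAT2 in the interferon complex. Irf9 went from 6.32 ± 1.56 to 19.7 ± 1.08 FPKM (log2 fold change 1.52, limma adjusted p = 0.000139). The remaining suppressors were not called, at -0.08 for Socs4, 0.55 for Socs5 (adjusted p = 0.0577), 0.29 for Socs6 and 0.70 for Socs7 (adjusted p = 0.0884), and neither were the kinases Jak3 at -0.09 and Tyk2 at 0.30. With the length trend removed 4 of 8 were called higher, Irf9 with Socs5 (0.66, adjusted p = 0.0204), Socs7 (0.70, adjusted p = 0.024) and Tyk2 (0.31, adjusted p = 0.0453), and with the replicate block 3 of 8 were (Irf9, Socs5 and Socs7). Over all genes the higher calls also rose, from 1827 to 2604 without the length trend and to 2115 with the block. None of the 8 was called between LPS + G-CDs and LPS, with a median of -0.23 beside 0.02 over all genes. Against control the LPS + G-CDs cells had Irf9 called higher and Jak3 called lower (-0.34, adjusted p = 0.0371), a call that was lost in 13 of 21 alternatives, among them removal of the length trend (-0.21, adjusted p = 0.114).

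Upstream, 15 cytokines that signal through these receptors were listed and 10 were tested, 8 of which were below 1 FPKM on average in control cells and so passed through the LPS-containing groups. Between LPS and control 9 of 10 were called higher, where 15.8% of all genes were. The cytokines above 1 FPKM on average in control cells, Ebi3 and Osm, were both called. Csf3, which encodes granulocyte colony-stimulating factor, went from 0.107 ± 0.15 FPKM in control to 1374 ± 37.5 FPKM in LPS cells (SD, n = 3). Il27 went from 0.618 ± 0.388 to 280 ± 4 FPKM. Csf2, Il6 and Ifnb1 had no reads in any control library, and Csf2 reached 145 ± 19.1 FPKM. The median log2 fold change of the list was 3.91. It was 7.13 with these 3 genes set to the bound given by 3 reads over the control group. That bound was taken without a pseudocount, while the other genes stayed on log2(FPKM + 1), so these medians are not on the same scale. With G-CDs added to LPS 0 of 10 were called, where 0.492% of all genes were, with a median of -0.25. By point estimate 7 were lower and 3 higher. With the length trend removed, where 52 of 11585 genes were called lower and 39 higher, 3 of 10 were called lower, with a median of -0.42. These were Csf3, Il27 and Csf2, which were also called with length and GC trends removed and in none of the other 19 alternatives. Csf3 was at 1052 ± 246 FPKM with G-CDs, a log2 difference of -0.41 (limma adjusted p = 0.326) and of -0.67 without the length trend (adjusted p = 0.0144). Il27 went from -0.62 (adjusted p = 0.272) to -0.87 (adjusted p = 0.00944) and Csf2 from -0.61 (adjusted p = 0.286) to -0.84 (adjusted p = 0.0416). Against control, 10 of 10 were called higher in LPS + G-CDs cells, where 12.8% of all genes were. In those cells Lif, a cytokine of the interleukin-6 type, reached 107 ± 19 FPKM from 0.00839 ± 0.00727. The call of Il15 (0.68, adjusted p = 0.0315), was lost in 10 of 21 alternatives, and Il15 passed the filter through the LPS + G-CDs libraries alone (1.32, 1.54 and 2.24 FPKM). Il10, Il12b, Il4, Il13 and Ifng stayed under the filter.

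Of 20 receptor chains 15 were tested, and between LPS and control 3 were called higher and 4 lower, with a median of 0.11, where 31.3% of all genes were called and 15.8% called higher. With the length trend removed the counts were 4 and 2, as Ifnar2 (adjusted p = 0.0782) and Ifngr1 (adjusted p = 0.089) lost their lower calls and Il15ra (adjusted p = 0.0229) was called higher. Over the 21 alternatives 2 to 8 were called higher and 1 to 6 lower, with 1 lower when any 1 LPS library was left out, without control replicate 2 or without LPS + G-CDs replicate 2. Il10ra, Il2rg and Il6ra were called in 21 of 21. Osmr, Lifr, Csf2rb2, Csf3r and Il21r stayed under the filter. Of the receptors for cytokines described above, Osmr had no reads in any library, Csf3r was at 0.319 ± 0.124 FPKM in control and 0.40 ± 0.105 FPKM in LPS cells, and Lifr was at 0.628 ± 0.101 FPKM in control and 0.0134 ± 0.0233 FPKM in LPS cells (SD, n = 3). The interleukin-10 receptor chain Il10ra rose by 1.82 on the log2 scale (limma adjusted p = 5.65e-06), and Il2rg, the chain common to several interleukin receptors, by 1.48 (adjusted p = 0.00395). Il6ra, the interleukin-6 receptor, fell by 1.11 (adjusted p = 0.00223). No receptor chain was called between LPS + G-CDs and LPS (0 of 15), with a median of -0.07. Against control, Il6ra in LPS + G-CDs cells was lower by a log2 fold change of -1.25 and Il10ra higher by 1.60, with 3 chains called in each direction (2 to 7 higher and 2 to 5 lower over the alternatives). The higher call of Il4ra was lost in 12 of 21.

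Among 12 other inhibitors of the pathway, 3 were called higher and 1 lower between LPS and control, with a median of 0.32, and this share was close to the 31.3% of all genes called. With the length trend removed, which raised the higher calls over all genes from 1827 to 2604, 6 were called higher, the further genes being Ptpn2 (adjusted p = 0.00805), Pias2 (adjusted p = 0.0106) and Pias4 (adjusted p = 0.0336), and 0 lower. The lower call, of Pias3 (-0.49, adjusted p = 0.0381), was lost in 11 of 21 alternatives, the replicate block included. Usp18, which restrains the interferon receptor, went from 5.11 ± 1.14 to 102 ± 4.02 FPKM (log2 fold change 4.08, limma adjusted p = 3.76e-07). Sh2b3, an adaptor that binds JAK2, rose by 1.00, and the phosphatase Ptprc by 0.97, though Ptprc was not called as TPM. With G-CDs added to LPS 0 of 12 were called, with a median of -0.08. Against control, Usp18 (4.28), Sh2b3 (0.55) and the phosphatase Ptpn2 (0.49) were called higher in LPS + G-CDs cells, with a median of 0.02, and in 21, 16 and 10 of 21 alternatives. As TPM the inhibitors called higher and lower were 2 and 3 between LPS and control, and 1 and 3 with a median of -0.40 between LPS + G-CDs and control.

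Genes that textbooks place downstream of the STAT factors were listed by factor. The list for the interferon complex includes the member Stat2 and also Irf9 and Usp18. Between LPS and control 14 of 14 genes were called higher, where 15.8% of all genes were, with a median of 3.91. Of these, 6 were below 1 FPKM on average in control cells, so the filter favored their difference from control. The ubiquitin-like Isg15 led at 6.13 (limma adjusted p = 1.4e-06), followed by Oasl1 at 5.01 and the antiviral Rsad2 at 4.65. Between LPS + G-CDs and LPS 0 of 14 were called, with a median of 0.13. Against control, 14 of 14 were called higher, where 12.8% of all genes were, with a median of 4.11. In the same order of comparisons Stat2 itself was at 2.04, -0.24 and 1.79.

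The STAT3 list of 10 genes, which includes Socs3, had 8 called higher between LPS and control (6 to 10 over the alternatives). Its median was 1.83, and 15.8% of all genes were called higher. The call of Sbno2 was lost in 8 of 21 alternatives, among them those leaving out each LPS library in turn. Pim1, a survival kinase, rose by 4.33 on the log2 scale (limma adjusted p = 2.36e-08). Il1rn, which encodes the antagonist of the interleukin-1 receptor, was the single gene of all lists called between LPS + G-CDs and LPS on the scale as reported, besides the cytokines named above that were called without the length trend. It was at 0.665, 1.32 and 1.46 FPKM in control cells, 136, 139 and 128 FPKM in LPS cells, and 55.4, 51.4 and 46.7 FPKM in LPS + G-CDs cells. The 3 groups were well separated, with the LPS + G-CDs libraries between the others. Its log2 fold change was 6.00 for LPS against control and fell by 1.38 for LPS + G-CDs against LPS, with a 95% interval of -1.74 to -1.02 (limma adjusted p = 0.00896). With the length trend removed the latter was -1.31 (adjusted p = 0.00707). The call was lost, with log2 differences of -1.35 to -1.56, as TPM (adjusted p = 0.0567), with a pseudocount of 0.1 (adjusted p = 0.0794) and without LPS replicate 1 (adjusted p = 0.0678), LPS replicate 2 (adjusted p = 0.0742) or LPS + G-CDs replicate 2 (adjusted p = 0.0671). The other 9 genes of the list were not called, and the list's median was -0.17. Against control, 7 of 10 were called higher in LPS + G-CDs cells, where 12.8% of all genes were, with a median of 1.66.

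The STAT5 list of 7 genes shares Pim1 with the STAT3 list and Osm with the cytokines and includes Cish, and its Socs2 was not tested. Between LPS and control 4 of 6 were called higher, where 15.8% of all genes were, with a median of 2.58. Among them were Osm (3.54), the survival gene Bcl2l1 (2.95) and Cish, which passed the filter through the LPS-containing groups alone. With the replicate block the cyclin gene Ccnd1 was also called, lower (-0.51, against an adjusted p of 0.118 without the block). Between LPS + G-CDs and LPS 0 of 6 were called, with a median of -0.21. Against control, 5 of 6 were called higher, where 12.8% of all genes were, and Ccnd1 lower (-1.05, limma adjusted p = 0.00893). The higher call of Id1 was lost in 10 of 21 alternatives. Of 9 STAT6 targets, most of them markers of macrophages treated with interleukin-4, only Egr2 passed the filter. Egr2 was at 0.462 ± 0.0585 FPKM in control, 2.99 ± 0.481 FPKM in LPS and 1.87 ± 0.178 FPKM in LPS + G-CDs cells (SD, n = 3). It was called higher in both LPS-containing groups than in control (1.44 and 0.97), but with all control libraries under 1 FPKM it passed the filter through those groups. Between them it differed by -0.47 (adjusted p = 0.212).

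**Figure D4:**
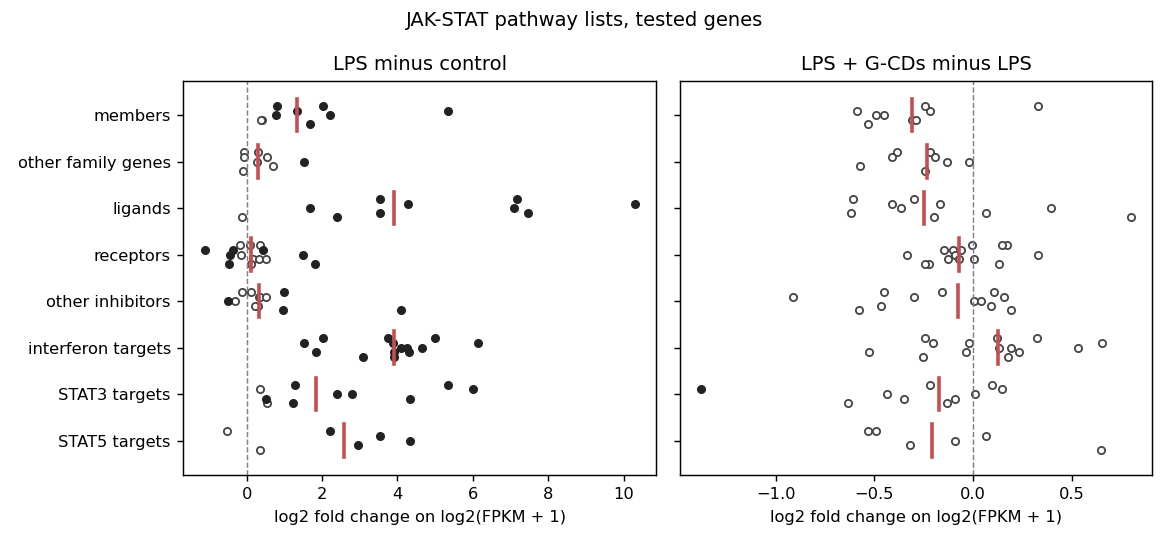
Log2 fold change on log2(FPKM + 1) (horizontal axis, with a scale of its own in each panel) of every tested gene in the members and in 7 pathway lists, for LPS minus control and LPS + G-CDs minus LPS. Filled points passed an adjusted p of 0.05 and red bars are medians; 7 of 9 members are filled in the first panel, and Il1rn at -1.38 is the one filled point in the second.

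The tested genes whose log2(FPKM + 1) over the 9 libraries was most like each member's were listed by Pearson's r, as a description, since the libraries share their groups. For Socs3 they were the transporter gene Slc15a3 and the growth factor gene Pdgfb, both at 0.999, and the cytokine gene Il1b at 0.998. For Cish they were the chemokine gene Ccl22 at 0.999, Edn1 at 0.998 and Lcn2 at 0.997. Socs1 was most like the proton pump gene Atp6v1h at 0.994, Tlcd2 at 0.992 and AC127341.3 at 0.990. No member was among the 3 genes most like another member.

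Jak1 was most like Fads6 (0.996), Kif16b (0.992) and Samd8 (0.991), and Jak2 most like Dcbld2 (0.999), Rab11fip1 (0.996) and Mtdh (0.996). For Stat2 the genes were Parp14 at 0.997, Lilrb4a at 0.996 and the antiviral synthetase gene Oas3 at 0.996. Stat3 was most like Sept11 at 0.998, which the table lists under a date and which was identified by its gene ID, then Fnbp1l and the DNA demethylase gene Tet2, both at 0.997. Fnbp1l was also among the genes most like Stat5a, at 0.982, with Zbtb7a at 0.983 and Bcl2l2 at 0.982. For Stat6 they were Prep at 0.989, Med15 at 0.988 and Vezf1 at 0.978.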

How the data were processed

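RNA-seq was done on 9 libraries of poly-A RNA, 3 per group. The authors deposited FPKM values per gene and library with gene coordinates and gene length. The labels name GRCm38 and mm10. The aligner, the counter and the use of strand are not given in the sources used here. Gene coordinates of 53548 of 54495 compared genes, and of 9 of 9 members, equaled GENCODE mouse release 21. All 9 value columns were mapped by name and 0 were left unmapped. FPKM multiplied by gene length was a whole multiple of 1 read within 0.05 reads in 100% of values, which gave the reads. The library size behind FPKM already held a scaling between libraries.

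The members and gene lists were chosen with earlier results of these data known. The 11585 genes that reached 1 FPKM in 3 or more libraries were fitted on log2(FPKM + 1). The fit was made in R 4.3.3 by limma (version 3.58.1, lmFit, then eBayes with trend) as a single model of 3 groups, with two-sided tests and Benjamini-Hochberg adjustment over all genes tested. A call is an adjusted p under 0.05. The 3 comparisons share groups pairwise. Named were the 9 members, every other family gene, and up to 3 called genes of each list by size of fold change. Genes under the filter or without control reads were named to complete their counts. The lists held 132 symbols with the markers, all found in the table, and 1 further gene is not reported here. Tables were prepared in Python 3.11.15 (pandas 2.3.3), and promoters came from RefSeq.

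The groups share replicate numbers. For control and LPS libraries of the same number, deviations from the group means correlated at 0.103, 0.137 and 0.113, just above a set limit of 0.1. Values so near it do not show that libraries were paired, and no label states pairing. For LPS + G-CDs the deviations correlated with LPS at 0.095, 0.0801 and 0.143 and with control at 0.28, 0.0575 and 0.653, below the limit in part. Replicate 3 of control and of LPS + G-CDs also had low medians for longer genes (-0.15 and -0.19), and a link with the 0.653 was not tested. A replicate block was 1 of 21 alternatives, with another pseudocount, filters, scalings, voom, the 6 libraries alone, eBayes without trend, length correction and each library left out; removal of length and GC trends together was chosen after seeing the data.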

Additional observations from a re-analysis of the deposited data

How the results depend on the processing

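Over 21 alternatives (20 for Socs1 and Cish, which the stricter filter of 5 FPKM removes), the log2 difference of a member between LPS + G-CDs and LPS kept its sign and stayed uncalled in 187 of 187 fits. Between LPS and control 181 of 187 did not change, 1 lost its call and 5 gained one (Stat6 also without replicate 3 of the LPS + G-CDs group, adjusted p = 0.05 after rounding), and no sign changed. Between LPS + G-CDs and control 170 of 187 did not change, 5 lost a call, 3 gained one and 9 changed sign. As TPM the differences of Jak1, Stat5a and Stat6 in that comparison were -0.32, -0.0497 and -0.33, and with quantile normalization Jak1 was at -0.0006 and Stat6 at -0.0789. With each library left out Jak1 ranged from -0.0778 to 0.31, below 0 without replicate 3 of the control group or replicate 1 of the LPS + G-CDs group, and Stat6 from -0.0395 to 0.25, below 0 without replicate 1 of either group. All of these were uncalled. TPM moved the median of all genes to -0.23 between LPS and control and -0.14 between LPS + G-CDs and LPS, and removal of length and GC trends moved the first to 0.18. TPM split the calls between LPS and control into 1003 higher and 3059 lower, against 1827 and 1803 as reported, 1633 and 2355 with quantile normalization, 2604 and 1717 without the length trend, and 3168 and 1346 without length and GC trends. The members called, 7, 0 and 6 in the order of the comparisons, were 7 to 8, 0 and 5 to 7 with each library left out. Members past an unadjusted p of 0.01 and 1.5-fold between LPS + G-CDs and LPS, 0 as reported, numbered 1 as TPM and with voom (Cish), 1 with the replicate block (Stat3) and 0 to 1 with a library left out (Stat3, without replicate 1 of the LPS + G-CDs group). All genes called in that comparison, 57 as reported, numbered 25 with a pseudocount of 0.1, 27 as TPM, 25 with the 6 libraries alone, 91 without the length trend, 88 without length and GC trends, and 11 to 256 with a library left out: 256 without replicate 1 of the LPS + G-CDs group, 11 and 29 without its replicates 2 and 3, 14, 12 and 21 without LPS replicates 1, 2 and 3, and 23 without control replicate 2. All genes called between LPS + G-CDs and control, 2927 as reported, numbered 1789 with the 6 libraries alone and 1914 to 3245 with a library left out, the lowest without replicate 2 of the LPS + G-CDs group. The replicate block changed no member's call, and all genes called with the block in pairing replicate numbers were 4104, 53 and 3347. The cause of these shifts was not tested. With 3 libraries per group, and as few as 9 reads for Socs1, differences within the intervals given could not be detected.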
